A study of Mus musculus with 6 samples.

Results

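The 32 genes described here encode the mitochondrial oxidation of fatty acids and the enzymes that release fatty acids from coenzyme A, and were taken by symbol from a table of read counts for 45777 genes. All 32 were in the table and all 32 passed the filter on low counts that left 16707 genes for testing. They were measured in brown adipose tissue of wild-type male C57Bl6/J mice that had received intraperitoneal injections for 2 weeks of Rb2, a ginsenoside (a saponin of ginseng), or of PBS, the saline vehicle, with 3 mice per group. The sources used here do not state the dose of Rb2, the injection schedule or the age of the mice. Column names number the libraries 1, 3 and 4 for Rb2 and 1, 2 and 4 for PBS, and those numbers are used below.

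Brown adipose tissue burns fatty acids to make heat. Long-chain acyl groups are passed to carnitine, carried over the inner mitochondrial membrane and handed back to coenzyme A, and a cycle of dehydrogenation, hydration, a further dehydrogenation and thiolysis then shortens them to acetyl-CoA. The first dehydrogenation passes its electrons through the electron transfer flavoprotein (ETF) and its membrane-bound oxidoreductase to ubiquinone. Acyl-CoA thioesterases work against the flow, since they split acyl-CoA into free fatty acid and coenzyme A.

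The libraries held 83642183 to 92666780 counts, and levels are given as CPM (counts scaled to the library size after TMM normalization), where 3 counts are at most 0.0370 CPM. All 13 brown adipocyte markers were detected in every library, and 2 were higher and 2 lower after Rb2 at an adjusted p under 0.05. Over all tested genes 5.33% were called higher and 5.11% lower, shares that also apply to the other marker lists below. Prdm16 (log2 fold change -1.13, adjusted p = 0.00584), a regulator of brown fat identity, and Elovl3 (-1.74, adjusted p = 0.0214), a fatty acid elongase, were lower after Rb2, and Ebf2 (0.84, adjusted p = 0.0416) and Zic1 (1.12, adjusted p = 0.0430), both transcription factors, were higher. Dio2 (-1.38, adjusted p = 0.133) and Cox8b (-0.65, adjusted p = 0.0751) did not pass but had all Rb2 libraries below all PBS libraries. Pparg (0.37, adjusted p = 0.150) did not pass either and had all Rb2 libraries above all PBS libraries. Of the 13 markers, 3 had all Rb2 libraries above and 4 all below, patterns seen in 18.2% and 17.6% of all tested genes. Ucp1, the uncoupling protein, stood at 2928 to 4687 CPM in the Rb2 libraries and 3388 to 4770 CPM in the PBS libraries, and the summed level of these markers was 12601 to 16931 CPM with Rb2 and 15603 to 16823 CPM with PBS. The PBS libraries were not alike: 18 skeletal muscle markers summed to 56.7, 558 and 359.7 CPM in Rb2 1, 3 and 4, against 2720.2, 8319 and 74.8 CPM in PBS 1, 2 and 4. None of the 18 passed the test; 8 were at 0 in Rb2 1, Ckm and Myh4 among them, and 1, Myh7, in PBS 4. PBS 4 had a higher mean correlation with the Rb2 libraries (Pearson r 0.969 of log2 CPM across genes) than with the other PBS libraries (0.954). GC-rich genes tended to be low in Rb2 1, 3 and 4 (Spearman rho across genes of -0.287, -0.254 and -0.133 between GC content and a gene's deviation from its mean), against rho of 0.00420, 0.347 and 0.386 in PBS 1, 2 and 4. Markers of other cells were counted in lists of 10 endothelial genes (4 lower after Rb2, none higher; summed level 823 to 1235 CPM with Rb2 and 1441 to 1642 CPM with PBS), 10 macrophage genes (4 lower, none higher; 79.8 to 109 CPM with Rb2 and 119.8 to 149.9 CPM with PBS), 9 fibroblast genes (none past the threshold; 517 to 729 CPM with Rb2 and 738 to 964 CPM with PBS) and 5 erythroid genes (4 lower; 479 to 793 CPM with Rb2 and 1036 to 1451 CPM with PBS). None of the markers in these lists was at 0 in any library. Of 6 white adipocyte markers 4 were tested and none passed (28.4 to 75.4 CPM with Rb2 and 47.8 to 283 CPM with PBS). The part of these differences in the results below was not tested beyond the fits named there, and in bulk tissue fewer cells of a type and less RNA per cell cannot be told apart.

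Of the 32 genes, 8 were higher after Rb2 and none was lower, at an adjusted p under 0.05 (edgeR quasi-likelihood test, Benjamini-Hochberg adjustment over all 16707 genes). Of all genes tested, 5.33% were called higher and 5.11% lower. The called genes were 4 of the 7 acyl-CoA dehydrogenases (Acadl, Acadm, Acad10 and Acad11), 2 of the 3 electron transfer genes (Etfa and Etfdh), 1 of the 6 genes of the carnitine shuttle (Slc22a5) and Acss1, and their folds ran from 1.53 to 2.10. None of the 8 genes of the later steps of the cycle and none of the 6 thioesterases passed, nor did Mlycd. Hadh (adjusted p = 0.0542), Acot9 (0.0561) and Hadhb (0.0583) were just above the threshold. Hadh and Hadhb each passed in 2 of the 6 fits with 1 library left out. The DESeq2 Wald test called Hadh, Hadhb, Eci2, Acot9 and Them4, and limma-voom called none of these. At an unadjusted p under 0.05, 17 of the 32 had a higher level and 1 a lower one, where 15.5% of all tested genes were higher and 14.6% lower. The DESeq2 Wald test and limma-voom also called none lower. The log2 fold change was positive in 29 of the 32 genes with a median of 0.39, against a median of -0.01 over all tested genes. In 19 of the 32 the 3 Rb2 libraries were all above the 3 PBS libraries, a pattern seen in 18.2% of tested genes, and in 1, Cpt1a, they were all below, as in 17.6% of tested genes.

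**Figure D1:**
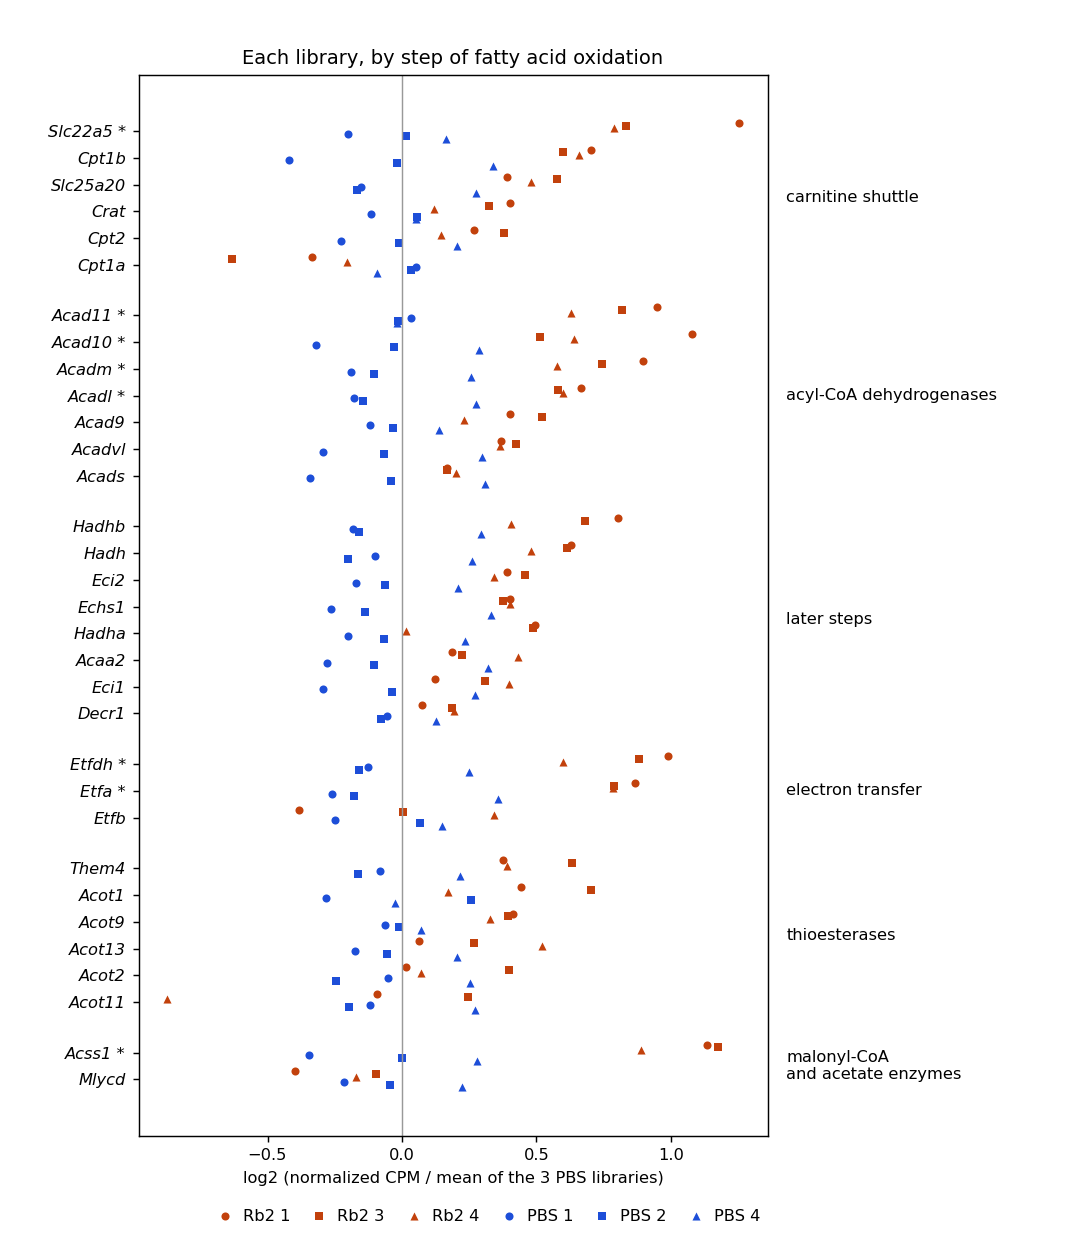
Level of each of the 32 genes in every library, as log2 of its normalized CPM over the mean of the 3 PBS libraries (x axis), grouped by step (y axis), with Rb2 libraries in orange, PBS libraries in blue and an asterisk on the 8 genes with an adjusted p under 0.05. PBS 4 is the highest PBS library in 28 of the 32 genes.

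Most of the genes shared an order of the PBS libraries. PBS 4 was the highest of the PBS libraries in 28 of the 32 genes, against 37.2% of all tested genes, and PBS 1 was the lowest of them in 23, against 37.4% of all tested genes. Within the Rb2 group Rb2 4 was the lowest library in 17 of the 32 genes, against 33.1% of all tested genes. Together the 32 genes took 1.96%, 1.95% and 2.03% of the counts in Rb2 1, 3 and 4, against 1.24%, 1.48% and 1.87% in PBS 1, 2 and 4.

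Promoter sequences were available for 26 of the 32 genes, including all 8 called ones, from RefSeq's GRCm38.p6 annotation (250 bases before to 50 after the start site). They are shown for the 6 called genes with the smallest p, as the clearest members of the group that was higher after Rb2, with matches to the motifs listed after them in capitals. The windows are chr11:53891654-53891953 (minus strand) for Slc22a5, chr2:150668191-150668490 (minus strand) for Acss1, chr9:104063474-104063773 (plus strand) for Acad11, chr3:79628718-79629017 (minus strand) for Etfdh, chr9:55512194-55512493 (minus strand) for Etfa and chr3:153944594-153944893 (minus strand) for Acadm, each written 5′ to 3′ in the direction of its gene.
Slc22a5: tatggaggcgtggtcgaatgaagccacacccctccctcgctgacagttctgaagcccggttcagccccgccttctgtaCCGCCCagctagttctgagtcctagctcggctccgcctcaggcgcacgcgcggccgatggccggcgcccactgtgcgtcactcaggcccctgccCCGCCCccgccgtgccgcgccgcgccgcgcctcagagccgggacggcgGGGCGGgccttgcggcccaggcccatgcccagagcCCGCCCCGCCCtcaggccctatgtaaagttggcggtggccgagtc
Acss1: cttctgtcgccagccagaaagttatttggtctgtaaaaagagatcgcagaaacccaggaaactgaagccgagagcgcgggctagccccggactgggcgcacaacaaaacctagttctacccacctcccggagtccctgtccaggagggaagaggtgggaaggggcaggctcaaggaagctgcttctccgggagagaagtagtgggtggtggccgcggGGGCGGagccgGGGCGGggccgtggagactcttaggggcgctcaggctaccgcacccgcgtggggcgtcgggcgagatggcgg
Acad11: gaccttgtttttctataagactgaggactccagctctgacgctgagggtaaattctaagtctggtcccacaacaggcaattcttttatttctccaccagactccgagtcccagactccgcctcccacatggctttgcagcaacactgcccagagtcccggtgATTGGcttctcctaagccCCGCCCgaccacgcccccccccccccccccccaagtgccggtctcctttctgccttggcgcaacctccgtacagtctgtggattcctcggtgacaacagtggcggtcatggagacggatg
Etfdh: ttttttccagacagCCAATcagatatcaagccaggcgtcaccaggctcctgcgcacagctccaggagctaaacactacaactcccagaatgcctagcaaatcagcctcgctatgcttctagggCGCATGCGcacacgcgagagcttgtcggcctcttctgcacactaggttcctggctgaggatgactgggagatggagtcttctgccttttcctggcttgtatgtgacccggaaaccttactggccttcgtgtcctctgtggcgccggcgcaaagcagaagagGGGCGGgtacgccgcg
Etfa: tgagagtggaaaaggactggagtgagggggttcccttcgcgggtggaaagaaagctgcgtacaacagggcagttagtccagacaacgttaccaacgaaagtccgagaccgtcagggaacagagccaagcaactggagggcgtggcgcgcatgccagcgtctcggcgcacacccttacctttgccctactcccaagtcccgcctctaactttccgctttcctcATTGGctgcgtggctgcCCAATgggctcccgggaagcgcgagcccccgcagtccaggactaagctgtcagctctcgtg
Acadm: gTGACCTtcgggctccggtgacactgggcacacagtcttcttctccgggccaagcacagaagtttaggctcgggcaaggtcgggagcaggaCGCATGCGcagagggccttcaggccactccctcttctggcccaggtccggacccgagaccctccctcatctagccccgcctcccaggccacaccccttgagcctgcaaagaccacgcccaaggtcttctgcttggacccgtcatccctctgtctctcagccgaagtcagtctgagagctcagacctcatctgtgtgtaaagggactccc

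Each motif was searched on both strands in all 32851 promoters of the table, and AGGTCA is contained in TCAAGGTCA. CGCATGCG, the core of the site of nuclear respiratory factor 1 (NRF1), a factor of mitochondrial genes, was in 3 of the 27 promoters of the 32 genes (Acot11 has 2 starts), namely those of the called genes Etfdh, Acadm and Acad10, and in 1.87% of all promoters. It began 127 bases before the start in Etfdh and 159 before it in Acadm. AGGTCA, the half-site of nuclear receptors such as the PPAR family, was in 4 of the 27, of which Acadm was the only called gene, and in 16.3% of all. TCAAGGTCA, the element of estrogen-related receptors, and TTATGTAA, a D-box of clock output factors, were in none of the 27 and in 0.423% and 0.938% of all. CACGTG, the E-box, was in 1 of the 27 and in 7.15% of all. CCGCCC, the GC box, was in 20 of the 27 and in 35.7% of all, and 5 of the 8 called promoters held it. CCAAT was in 12 of the 27, 3 of them called genes, and in 37.4% of all. These matches describe letters in a window and show no binding.

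The carnitine shuttle opens the pathway. Slc22a5, the plasma membrane carnitine transporter (chromosome 11, 53864542 to 53891796 in GRCm38.p6), stood at 57.2, 42.8 and 41.5 CPM in Rb2 1, 3 and 4, against 20.9, 24.3 and 26.9 CPM in PBS 1, 2 and 4. The lowest Rb2 library was well above the highest PBS library, and the level was 1.96-fold higher after Rb2 (log2 fold change 0.97 ± 0.16 SE, adjusted p = 0.0102). Cpt1b, the muscle-type carnitine palmitoyltransferase of the outer membrane, which is the main form in brown fat, had 662, 616 and 641 CPM in Rb2 1, 3 and 4, against 303, 401 and 513 CPM in PBS 1, 2 and 4. Its groups did not overlap and its PBS libraries spread widely, and its log2 fold change of 0.66 ± 0.19 SE did not pass (adjusted p = 0.0586). It passed in a fit with a GC and length offset (0.82, adjusted p = 0.0344) and without PBS 4 (0.84, adjusted p = 0.0318). A second gene record, Gm44502, spans the whole 9458 bases of Cpt1b and held 15206 counts over the 6 libraries, against 279817 for Cpt1b, so some reads may belong to either.

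Cpt1a, the liver-type form of the same enzyme, did not pass and had a negative value. It was at 13.2, 10.7 and 14.5 CPM in Rb2 1, 3 and 4, against 17.3, 17.0 and 15.6 CPM in PBS 1, 2 and 4, with all Rb2 libraries below all PBS libraries (log2 fold change -0.38 ± 0.14 SE, adjusted p = 0.112). The ratio of Cpt1b to Cpt1a counts within a library, a value chosen after the levels were seen, was 50.2, 57.3 and 44.4 in Rb2 1, 3 and 4, against 17.6, 23.5 and 32.9 in PBS 1, 2 and 4. The ratio was thus higher in each Rb2 library than in any PBS library, with PBS 4 the highest of its group.

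The carriers and transferases inside the membrane did not pass. Slc25a20, the carnitine-acylcarnitine translocase, had 408, 465 and 434 CPM in Rb2 1, 3 and 4, against 280.2, 277 and 377 CPM in PBS 1, 2 and 4 (log2 fold change 0.48 ± 0.16 SE, adjusted p = 0.0839), without overlap between the groups. Crat, carnitine acetyltransferase, showed 722, 684 and 594 CPM in Rb2 1, 3 and 4, against 505, 569 and 568 CPM in PBS 1, 2 and 4, also without overlap (0.28, adjusted p = 0.22). Cpt2, which returns the acyl group to coenzyme A, had overlapping groups at 338 to 398 CPM with Rb2 and 261 to 352 CPM with PBS (0.27, adjusted p = 0.277).

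Acyl-CoA dehydrogenases, which take the first pair of hydrogens from an acyl-CoA, held 4 of the 8 calls. Acadl, the long-chain enzyme (chromosome 1, 66830839 to 66863309), had 2333, 2194 and 2223 CPM in Rb2 1, 3 and 4, against 1299, 1330.0 and 1778 CPM in PBS 1, 2 and 4. PBS 4 was the nearest to the Rb2 libraries, which lay close together, and the log2 fold change was 0.62 ± 0.17 SE, adjusted p = 0.0484. Acadm, the medium-chain enzyme (chromosome 3, 153922353 to 153944643), stood at 1765, 1591 and 1416 CPM in Rb2 1, 3 and 4, against 832, 883 and 1134 CPM in PBS 1, 2 and 4. Every Rb2 library was above every PBS library, with a log2 fold change of 0.74 ± 0.17 SE, adjusted p = 0.0294.

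The other pair of called dehydrogenases carries an additional kinase-like domain. Acad11 (chromosome 9, 104063724 to 104127656) had 234, 215 and 188 CPM in Rb2 1, 3 and 4, against 124, 120.4 and 119.9 CPM in PBS 1, 2 and 4. Its PBS libraries differed little from each other, PBS 4 included, and the level was 1.75-fold higher after Rb2 (log2 fold change 0.80 ± 0.14 SE, adjusted p = 0.011). Acad10 (chromosome 5, 121621026 to 121660603) was at 48.6, 32.8 and 35.9 CPM in Rb2 1, 3 and 4, against 18.5, 22.5 and 28.0 CPM in PBS 1, 2 and 4 (log2 fold change 0.77 ± 0.19 SE, adjusted p = 0.0396). Rb2 1 was far above the other Rb2 libraries for this gene. Acad10 overlaps Brap by 41 bases, a gene with 25489 counts over the libraries against 16570 for Acad10. Acad12, a related gene that lies next to Acad10 on chromosome 5, had a log2 fold change of 0.76 ± 0.24 SE, adjusted p = 0.081, and reads could be shared between the pair if the counting allowed it.

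The other 3 enzymes of this step did not pass. Acadvl, the very long-chain dehydrogenase of the inner membrane, had 1811, 1883 and 1811 CPM in Rb2 1, 3 and 4, against 1146, 1340.5 and 1728 CPM in PBS 1, 2 and 4, with PBS 4 just below the Rb2 libraries (log2 fold change 0.39 ± 0.18 SE, adjusted p = 0.178). Acad9, which also serves in complex I assembly, was at 51.9, 56.3 and 46.0 CPM in Rb2 1, 3 and 4, against 36.1, 38.4 and 43.2 CPM in PBS 1, 2 and 4, without overlap (0.39, adjusted p = 0.0808). Acads, the short-chain enzyme, was at 379, 378 and 387 CPM in Rb2 1, 3 and 4, against 266, 328 and 418 CPM in PBS 1, 2 and 4, and PBS 4 was above all Rb2 libraries (0.18, adjusted p = 0.523).

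Electron transfer from these dehydrogenases runs through 3 genes, and the 2 subunits of ETF did not show the same values. Etfa, the alpha subunit (chromosome 9, 55454436 to 55512243), had 996, 943 and 941 CPM in Rb2 1, 3 and 4, against 457, 483 and 700.5 CPM in PBS 1, 2 and 4. The Rb2 libraries were tightly grouped above all PBS libraries, at 1.76-fold (log2 fold change 0.81 ± 0.19 SE, adjusted p = 0.0276). Etfb, the beta subunit that pairs with it, had 711, 929 and 1175 CPM in Rb2 1, 3 and 4, against 781, 972 and 1029 CPM in PBS 1, 2 and 4. Its Rb2 libraries spanned the whole PBS range and its log2 fold change was 0.02 ± 0.20 SE, adjusted p = 0.965. Etfdh, the ETF-ubiquinone oxidoreductase (chromosome 3, 79603788 to 79628767), had 641, 594 and 488 CPM in Rb2 1, 3 and 4, against 295, 288 and 384 CPM in PBS 1, 2 and 4, again without overlap (1.78-fold, log2 fold change 0.83 ± 0.17 SE, adjusted p = 0.0211). Its gene overlaps Ppid by 23 bases, with 14467 counts over the libraries for Ppid against 237760 for Etfdh.

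The ratio of Etfa to Etfb counts, chosen after the levels were seen, was 1.40, 1.02 and 0.801 in Rb2 1, 3 and 4, against 0.585, 0.497 and 0.681 in PBS 1, 2 and 4. The transcripts of Etfa and Etfb differ in GC content (45.0% and 57.1% in the longest annotated transcript). When GC content and transcript length were included as an offset, the log2 fold change of Etfa was 0.80 (adjusted p = 0.0480), that of Etfdh 0.70 (adjusted p = 0.0420) and that of Etfb 0.39 (adjusted p = 0.162).

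The later steps of the cycle had positive log2 fold changes in all 8 genes, from 0.15 to 0.64 with a median of 0.37, and none passed the threshold. Hadhb, the beta subunit of the mitochondrial trifunctional protein, was at 2732, 2506 and 2075 CPM in Rb2 1, 3 and 4, against 1379, 1400.2 and 1917 CPM in PBS 1, 2 and 4 (log2 fold change 0.64 ± 0.19 SE, adjusted p = 0.0583). Hadha, its alpha subunit, was at 1329, 1323 and 954 CPM in Rb2 1, 3 and 4, against 821, 901 and 1109 CPM in PBS 1, 2 and 4, and here Rb2 4 lay among the PBS libraries (0.35, adjusted p = 0.24). The pair are neighbours on chromosome 5 with 272 bases between the annotated genes. Hadh, the dehydrogenase for medium and short chains, had 1265, 1252 and 1141 CPM in Rb2 1, 3 and 4, against 763, 712 and 978 CPM in PBS 1, 2 and 4, with no overlap and an adjusted p just above the threshold (log2 fold change 0.58 ± 0.17 SE, adjusted p = 0.0542).

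Echs1, the short-chain hydratase, and Eci2, an isomerase for unsaturated chains, were also without overlap. Echs1 had 566, 555 and 565 CPM in Rb2 1, 3 and 4, against 356, 389 and 538 CPM in PBS 1, 2 and 4 (0.39, adjusted p = 0.166), and Eci2 116 to 126 CPM with Rb2 and 81.6 to 106 CPM with PBS (0.40, adjusted p = 0.0924). In Acaa2, the thiolase that ends the cycle (0.29), Eci1, the other isomerase (0.28), and Decr1, the dienoyl-CoA reductase (0.15), PBS 4 lay within the Rb2 range, and their adjusted p ran from 0.306 to 0.489. Echs1 overlaps Paox by 687 bases, a gene with 12699 counts over the libraries against 265211 for Echs1.

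**Figure D2:**
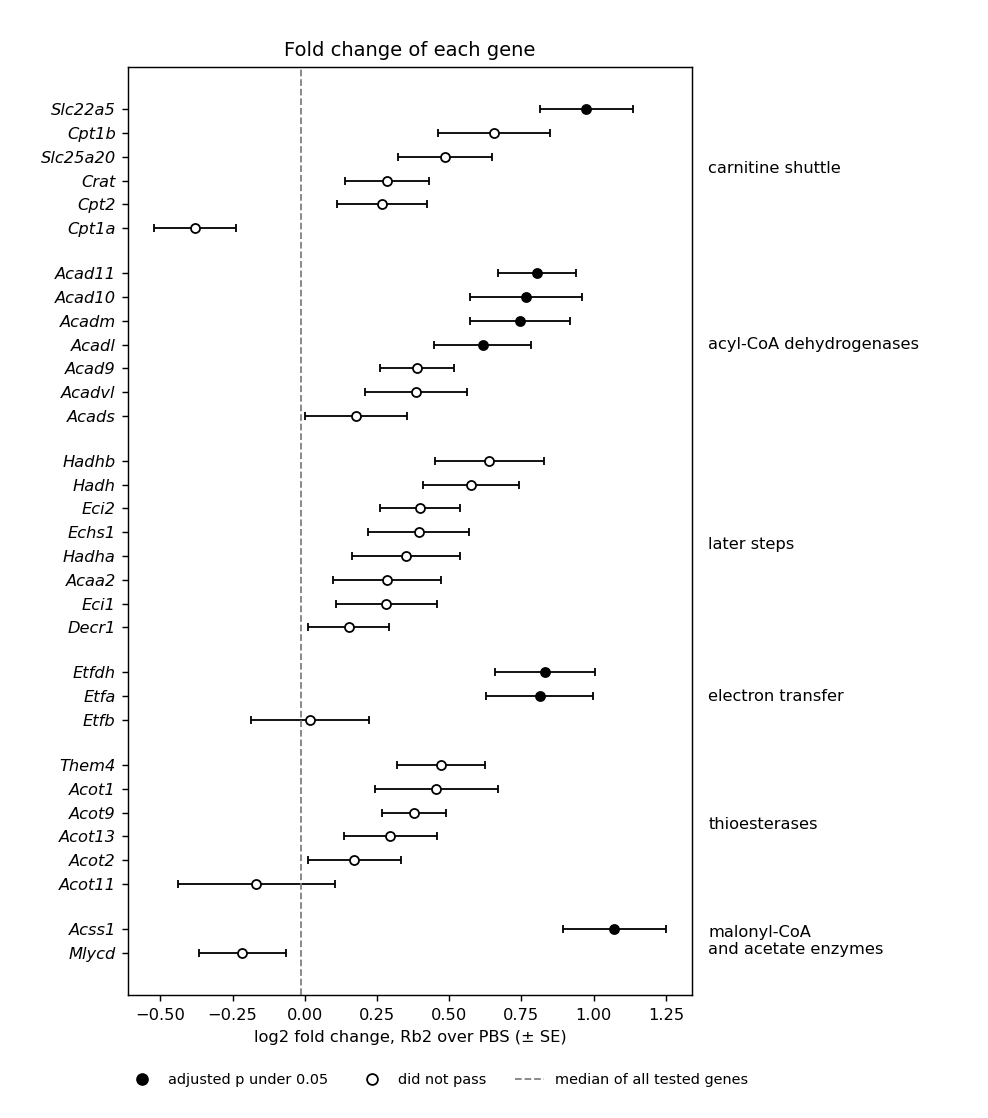
Log2 fold change of Rb2 over PBS with its standard error (x axis) for the 32 genes by step (y axis), filled where the adjusted p was under 0.05. The dashed line is the median of all tested genes (-0.01), and 29 of the 32 values are above 0.

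No thioesterase passed the threshold. Acot9, a mitochondrial enzyme, was at 43.4, 42.9 and 41.0 CPM in Rb2 1, 3 and 4, against 31.2, 32.4 and 34.2 CPM in PBS 1, 2 and 4, with tight groups that did not overlap (log2 fold change 0.38 ± 0.11 SE, adjusted p = 0.0561). Them4, another mitochondrial thioesterase, was at 10.8, 12.9 and 10.9 CPM in Rb2 1, 3 and 4, against 7.88, 7.45 and 9.67 CPM in PBS 1, 2 and 4, also without overlap (0.47, adjusted p = 0.0751). Acot13 had overlapping groups at 98.9 to 136 CPM with Rb2 and 83.8 to 109 CPM with PBS (0.30, adjusted p = 0.246).

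Acot11, a thioesterase that is induced by cold in mouse brown fat, varied widely among the Rb2 libraries. It stood at 240.4, 304 and 139.9 CPM in Rb2 1, 3 and 4, against 236, 224 and 309 CPM in PBS 1, 2 and 4, and Rb2 4 was the lowest of all libraries while Rb2 3 was close to the highest PBS library (log2 fold change -0.17 ± 0.27 SE, adjusted p = 0.712). Its sign turned without Rb2 4 (0.09, adjusted p = 0.784). Acot2, of the mitochondrial matrix, and Acot1, its cytosolic relative, are neighbours on chromosome 12 with 15624 bases between them and are similar in sequence, so reads could be exchanged between them. Acot2 had 37.1, 48.4 and 38.6 CPM in Rb2 1, 3 and 4, against 35.4, 31.0 and 43.8 CPM in PBS 1, 2 and 4 (0.17, adjusted p = 0.501). Acot1 stood at 5.03, 6.03 and 4.17 CPM in Rb2 1, 3 and 4, against 3.05, 4.43 and 3.64 CPM in PBS 1, 2 and 4 (0.45, adjusted p = 0.183).

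The remaining pair handles acetate and malonyl-CoA. Acss1, the mitochondrial enzyme that turns acetate into acetyl-CoA (chromosome 2, 150618111 to 150668240), had the highest log2 fold change of the 32 genes. It was at 244, 251 and 206 CPM in Rb2 1, 3 and 4, against 87.7, 111 and 135 CPM in PBS 1, 2 and 4, 2.10-fold higher after Rb2 with no overlap (log2 fold change 1.07 ± 0.18 SE, adjusted p = 0.0104). The cytosolic enzyme for the same reaction, Acss2, had 284, 321 and 164 CPM in Rb2 1, 3 and 4, against 422, 353 and 445 CPM in PBS 1, 2 and 4 and did not pass (-0.66 ± 0.24 SE, adjusted p = 0.0997). The ratio of Acss1 to Acss2 counts, chosen after the levels were seen, was 0.860, 0.783 and 1.26 in Rb2 1, 3 and 4, against 0.208, 0.315 and 0.304 in PBS 1, 2 and 4. Mlycd, which breaks down malonyl-CoA, the inhibitor of the CPT1 enzymes, was at 61.6, 75.8 and 71.9 CPM in Rb2 1, 3 and 4, against 69.9, 78.6 and 94.7 CPM in PBS 1, 2 and 4 (log2 fold change -0.22 ± 0.15 SE, adjusted p = 0.359), and its sign turned when GC and length were offset (0.11, adjusted p = 0.632).

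Per kilobase of the longest annotated transcript, Acaa2 was the most abundant in both groups (1302 in Rb2 and 1068 in PBS, in CPM per kilobase). Acadl had 1174 in Rb2 and 767 in PBS and Etfb 1051 in Rb2 and 1038 in PBS, so that these 3 genes led in both groups by this measure. The order depends on the transcript chosen, and which transcripts were expressed was not tested. Hadhb, for example, had a mean of 2438 CPM in Rb2 and 1565 CPM in PBS and was divided by a transcript of 4388 bases. Acot1 was the lowest (1.94 in Rb2 and 1.42 in PBS). Cpt1b was far above Cpt1a in this measure, with 221 in Rb2 and 140.3 in PBS CPM per kilobase for Cpt1b and 2.96 in Rb2 and 3.86 in PBS for Cpt1a.

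Within the 32 genes the log2 fold change went with base composition (Spearman rho of -0.55 across the 32 genes, which share the 6 libraries; -0.33 across the 15644 tested genes with a GC value). Of the 16 genes under 50% GC, 6 were called, and of the 16 at 50% or over, 2 (Acss1 and Acad10). After the offset for GC and length the rho across the 32 was -0.01 and 8 genes were higher, Cpt1b among them and Acadl no longer (0.57, adjusted p = 0.0802), where 5.08% of all genes were called higher. Their median was 0.46 with the offset, which placed the median of all genes at 0.05. The offset was fitted to each of these libraries across genes, so the loss of the trend was largely built in. Any group difference that goes with GC content or length is removed with it.

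**Figure D3:**
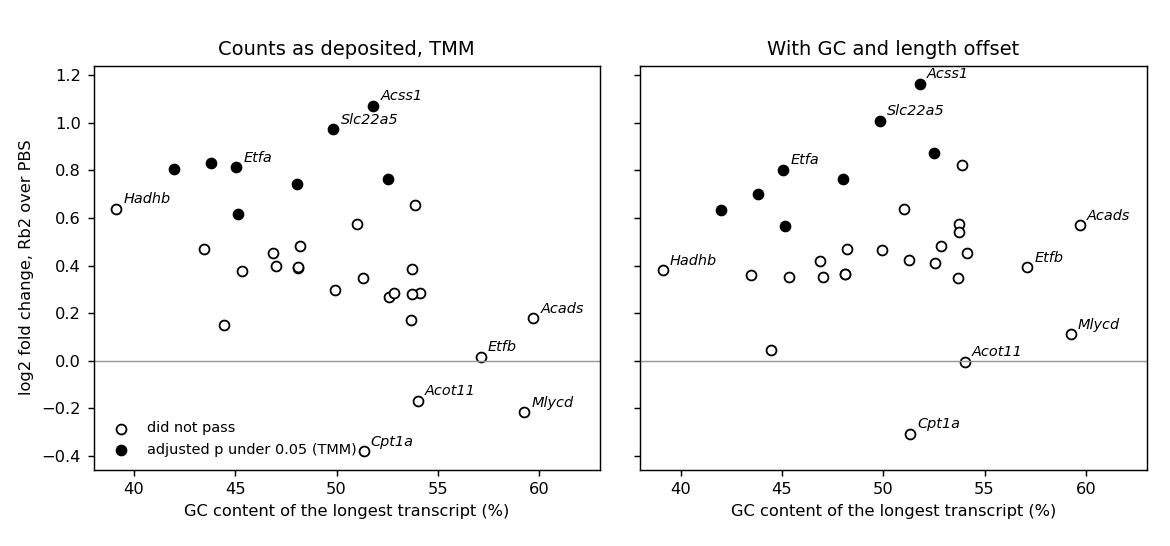
Log2 fold change of Rb2 over PBS (y axis) against the GC content of the longest transcript in percent (x axis) for the 32 genes, from the counts with TMM scaling (left) and with GC and length offset (right), filled for the 8 genes called with TMM. The slope in the left panel (rho -0.55) is gone in the right (rho -0.01), where Etfb and Acads sit higher and Hadhb lower. The offset was fitted to these same libraries to remove such a trend across genes.

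The calls depended on which mice were included. Acss1 was called whichever of the 6 libraries was left out (adjusted p 0.00998 to 0.0498), Slc22a5 in 5 of the 6 fits and Acad11 in 4. Etfdh, Etfa, Acadm and Acad10 were called in 2 of the 6, without PBS 4 and without Rb2 4, and Acadl in 1, without PBS 4. Of the 32 genes 3 were higher without Rb2 1 (1.61% of all genes were called higher), 3 without Rb2 3 (1.95%) and 10 without Rb2 4 (7.02%). The count was 1 without PBS 1 (0.705% of all genes), 2 without PBS 2 (0.711%) and 12 without PBS 4 (3.92%). With the skeletal muscle markers as a covariate 5 of the 32 were higher (2.53% of all genes), namely Slc22a5, Acad11, Etfa, Etfdh and Acss1. With PBS 1 and PBS 2 left out a single PBS library remained, so only effect sizes are given. The median log2 fold change of the 32 genes was then 0.22, against 0.01 over all tested genes. That fit assumes that the single PBS library varies like the Rb2 libraries. All 8 genes kept a positive log2 fold change in every one of these fits.

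**Figure D4:**
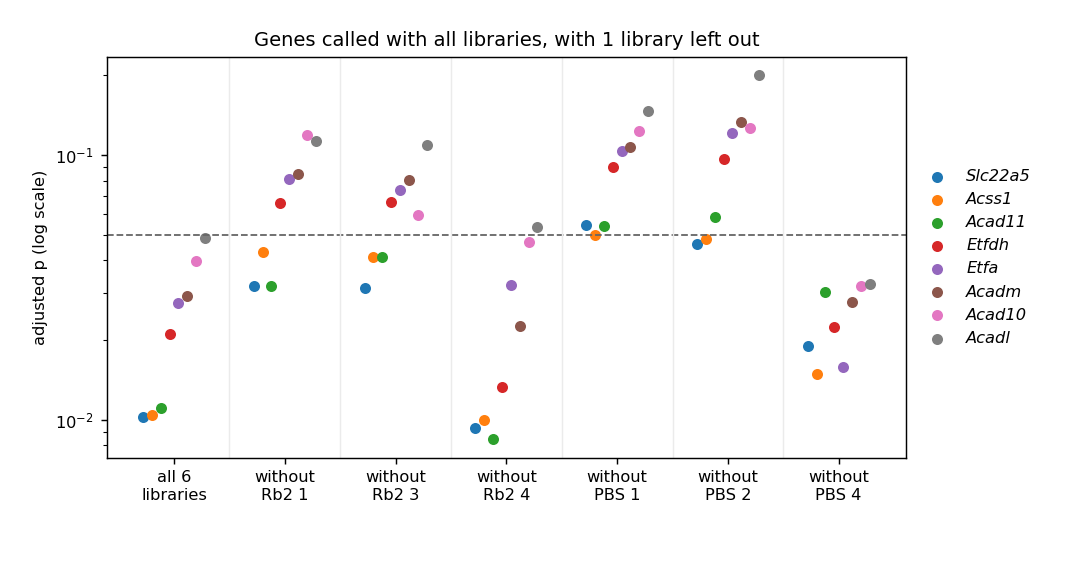
Adjusted p (log axis) of the 8 called genes with all 6 libraries and with each library left out in turn; the dashed line is 0.05. Acss1 stays under the line in all 6 fits, and without PBS 4 all 8 do.

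Genes around the pathway were described from lists of 87 genes, of which 85 were in the table and 76 were tested. Of those tested, 13 were higher and 1 was lower after Rb2. Over all tested genes 5.33% were called higher and 5.11% lower, shares that also apply to the single lists below. Beside the ETF genes, Etfbkmt, which methylates the ETF beta subunit, had 34.3, 34.3 and 39.8 CPM in Rb2 1, 3 and 4, against 17.2, 19.2 and 20.02 CPM in PBS 1, 2 and 4 (log2 fold change 0.94 ± 0.13 SE, adjusted p = 0.00537). Etfrf1, a regulator of ETF, rose too (0.51 ± 0.14 SE, adjusted p = 0.0431), so that 2 of the 4 genes of that list were called. Crot, the peroxisomal carnitine acyltransferase, was the 1 called gene of 4 tested carnitine genes (0.71 ± 0.14 SE, adjusted p = 0.0187). Of the 5 acyl-CoA dehydrogenases of amino acid breakdown and relatives, Acadsb (0.57, adjusted p = 0.0381) and Ivd (0.50, adjusted p = 0.0426) rose. Of the 7 tested helper enzymes, Decr2, the peroxisomal dienoyl-CoA reductase (0.88 ± 0.14 SE, adjusted p = 0.0101), and Acat1, the acetoacetyl-CoA thiolase (0.57 ± 0.15 SE, adjusted p = 0.0478), rose.

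The other 7 thioesterases tested held no call, like the 6 above, and only Acot8 among them had groups without overlap, lower after Rb2 (-0.46 ± 0.16 SE, adjusted p = 0.0937). None of 5 other genes of malonyl-CoA and acetate handling, beside Acss1 and Mlycd, passed, with Acaca at -0.23 ± 0.30 SE, adjusted p = 0.649 and Acacb at 0.19 ± 0.20 SE, adjusted p = 0.554. Among 12 peroxisomal oxidation genes 1 rose (Hsd17b4, 0.57, adjusted p = 0.0477), and among 13 genes of fatty acid supply and activation 2 did, Acsl1, the main acyl-CoA synthetase of adipocytes (1815, 1772 and 1206 CPM in Rb2 1, 3 and 4, against 1092, 918 and 988 CPM in PBS 1, 2 and 4; 0.68, adjusted p = 0.0499), and Slc27a2, which activates very long chains (269.6, 283 and 207 CPM in Rb2 1, 3 and 4, against 52.8, 66.8 and 68.5 CPM in PBS 1, 2 and 4; 2.01, adjusted p = 0.00166). Of 11 regulators 3 rose. Ppara, the nuclear receptor that drives many of these genes, had 267, 205 and 231 CPM in Rb2 1, 3 and 4, against 120.0, 120.1 and 178 CPM in PBS 1, 2 and 4 (log2 fold change 0.75 ± 0.19 SE, adjusted p = 0.0369), Ppargc1b, a coactivator, 0.68 (adjusted p = 0.0294) and Lpin1 0.65 (adjusted p = 0.0467). Of 8 tested PPAR target genes outside the pathway none rose and 1 fell, the droplet protein gene Plin2 (393, 473 and 268 CPM in Rb2 1, 3 and 4, against 747, 639 and 616 CPM in PBS 1, 2 and 4; log2 fold change -0.82 ± 0.21 SE, adjusted p = 0.0387), while Pdk4 was at 0.39 ± 0.37 SE, adjusted p = 0.524.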

How the data were processed

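Messenger RNA libraries of 3 Rb2 and 3 PBS mice were used. The authors deposited 1 table of whole, unnormalized read counts for each gene. Trimmomatic, HISAT2, Bowtie2, StringTie and mm10 are named in the submitters' processing notes, with no role or order; the counting program and whether it used strand were not given in the sources used. The kit was stranded. Column numbers and the titles' replicate numbers do not correspond, so columns carry groups only.

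Genes were tested with edgeR 4.0.16 (R 4.3.3): quasi-likelihood F test, TMM, robust dispersions, default expression filter (count minimum 10, total 15), and Benjamini-Hochberg adjustment over all tested genes with a threshold of 0.05. The SE is the log2 fold change over the square root of F. Alternatives used DESeq2 1.42.0, limma 3.58.1, other scalings and filters, omitted libraries, a muscle covariate, a number block and an offset from natural splines (5 degrees of freedom each) of GC content and length of the longest GENCODE transcript, known for 93.6% of tested genes. The members, lists and alternatives were chosen with earlier results of these data known. Named were all called genes, the extremes of each step and fixed paralogue pairs, and up to 4 called genes per wider list. Other members given by library, and Acad12, Acss2, Acot8, Acaca, Acacb, Pdk4, Ucp3 and Vnn1, were added after their values were seen. So were the uncalled markers Dio2, Cox8b and Pparg. Positions come from RefSeq GRCm38.p6, the assembly that mm10 stands for. Floors of 3 counts cover counting error only.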

Additional observations from a re-analysis of the deposited data

How the results depend on the processing

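The count of 8 genes higher after Rb2 (5.33% of all genes were called higher) was 8 with DESeq2's size factors (5.34%), 7 with upper-quartile factors (4.78%), 7 with no filter (3.25%), 11 with a count minimum of 50 (7.89%), 6 with limma-voom (3.62%) and 8 with the GC and length offset (5.08%). It was 4 with library size alone as scaling (2.94%), which placed the median of all genes at -0.10 (-0.01 with TMM) and the share of calls that were higher at 38.7% (51.1% with TMM), 16 in the DESeq2 Wald test (10.1%; 3309 genes in all, against 1743 in edgeR) and 5 with the muscle covariate (2.53%; 876 genes in all). Without PBS 1 and PBS 2, where a single PBS library remained, the median log2 fold change of the 32 genes was 0.22. With 1 library left out the counts ran from 1 to 12 for the 32 genes and from 303 to 2269 for all genes, and the median from 0.33 to 0.48. None was lower in any fit. The numbers that both groups carry in the table (1 and 4) are not known to pair mice. With a replicate block on the numbers 0 of the 32 and 96 genes in all were called, and 8 of the 32 were higher at an unadjusted p under 0.05 (6.75% of all genes). PBS 2 and Rb2 3 are each alone in their block, so that fit compares the groups only within numbers 1 and 4. Little is then left to estimate spread, and the loss of calls cannot tell whether the numbers pair mice. The deviations of same-numbered libraries had weak negative correlations (r -0.197 for number 1 and -0.215 for number 4).

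Of the single-gene values under the alternatives, 461 kept their direction and side of the threshold, 52 lost the call, 19 gained it and 12 turned sign, all in genes that had not passed. Etfb was at -0.0616 with library size alone, -0.00160 with upper-quartile factors, -0.00212 with limma-voom, -0.18 without Rb2 4, -0.09 without PBS 1 and -0.13 without PBS 1 and PBS 2, and ran from -0.18 to 0.18 with 1 library left out. Without PBS 1 and PBS 2 Acads was at -0.13, Acaa2 at -0.0321 and Acot2 at -0.0808, and Acot2 was at -0.0575 with the block. Acot11 ran from -0.43 to 0.0860 with 1 library left out, the highest without Rb2 4, and Mlycd was at 0.11 with the offset. The causes were not tested.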
